A study of Drosophila melanogaster with 3 samples.

Results

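The genes described here are 10 potassium channel genes of Drosophila melanogaster: Shaker (Sh), Hyperkinetic (Hk), Shab, Shal, Shaw, slowpoke (slo), ether a go-go (eag), Elk, seizure (sei) and KCNQ. They were chosen by name as the classical voltage-gated and large-conductance calcium-activated channels of the fly, together with the Shaker partner Hk. Earlier results of these data were known when the choice was made. Of the 10 genes, 9 had at least 1 probe set with a single gene name, out of 11981 named genes on the array. KCNQ had no such probe set and was not analysed here. RNA of whole adult heads was measured on 3 Affymetrix arrays, 1 for each genotype. PKA-CA flies carried p247-Gal4 and tub-gal80[ts] together with UAS-PKA-CA, which encodes a constitutively active protein kinase A (PKA). PKA-DN flies carried p247-Gal4 and tub-gal80[ts] together with UAS-PKA-DN, which encodes a dominant-negative form. Control flies carried the driver p247-Gal4 and the heat-sensitive repressor tub-gal80[ts] over a wild-type chromosome and had no PKA transgene.

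All 3 genotypes were kept at 18 °C and shifted to 32 °C as 3-day-old adults for 12 to 16 h, so the controls had the same heat shift. Heads were labelled as 4 to 6 days old. This driver, MB247-Gal4 in the design text, acts in the mushroom bodies, which are the brain centre of olfactory memory and a small part of the head. The arrays measured RNA of all head cells together, whether or not the driver acts in them. By its wording the design text assigns increased activity to PKA-DN and decreased activity to PKA-CA; going by the transgene names, PKA-CA is taken here as the activating form and PKA-DN as the inhibiting one. PKA activity itself was not measured.

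Potassium channels let potassium leave the cell and so repolarize neurons and muscle after an action potential, set the resting potential and limit repetitive firing. In flies several of them were found through mutants that shake their legs under ether. The Shaker family channels Sh, Shab, Shal and Shaw open with voltage, Slo needs both calcium and voltage, and the Eag, Elk and Sei proteins form the ether a go-go family. PKA is known to phosphorylate some of these proteins, a step that a transcript measurement does not see.

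The values were MAS5 signals, a linear brightness in arbitrary units for each probe set, put on a common mean before deposit. With 1 array per genotype there was no replicate error and no difference could be tested, and precision is limited by that number. The highest of 99 background control probe sets reached a signal of 70.9 for PKA-CA, 77.8 for PKA-DN and 77.0 for control. A gene was called detected when its brightest probe set exceeded these values on all 3 arrays, which held for 7458 genes and for all 9 channel genes with a probe set. Genes in the upper 50% by mean signal (above 254) are called compared genes, and 6 channel genes, namely Sh, Hk, Shaw, slo, Elk and sei, were among these 5991. Shab, Shal and eag were dimmer. RNA end measures differed between arrays: GAPDH had a 3'/5' signal ratio of 2.004 in PKA-CA and 2.06 in PKA-DN heads, against 1.70 in control heads, and actin had 1.70 in PKA-CA and 2.29 in PKA-DN heads, against 1.79 in control heads. For eIF-4a the ratio was 3.01 in PKA-CA and 2.33 in PKA-DN heads, against 2.51 in control heads, and for 18S rRNA it was 4.34 in PKA-CA and 7.39 in PKA-DN heads, against 4.08 in control heads.

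**Figure D1:**
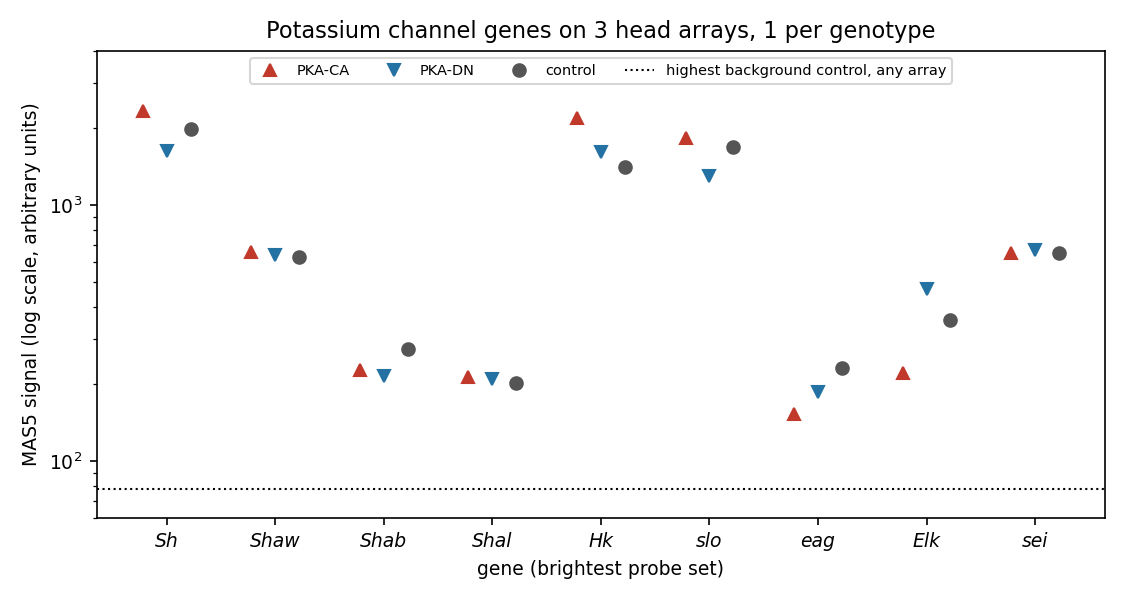
MAS5 signal (arbitrary units, log scale) of the brightest probe set of 9 potassium channel genes, with 1 point for each array; the dotted line marks 77.8, the highest background control on any array. Within Hk the PKA-CA signal was the highest and within Elk it was the lowest, while within each of Shaw, Shal and sei the signals of the arrays nearly coincided. Heights of different genes are not comparable, because each probe set has its own response.

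Shaker encodes the pore subunit of a fast inactivating current. Its brightest probe set had a signal of 2318 in PKA-CA heads and 1622 in PKA-DN heads, against 1984 in control heads. The control array therefore lay between the PKA arrays, with log2 ratios over control of 0.22 in PKA-CA and -0.29 in PKA-DN. Between the PKA arrays the log2 ratio was 0.52, a 1.43-fold higher signal in PKA-CA, and 96.7% of compared genes had a lower ratio.

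Hyperkinetic encodes the beta subunit that binds Shaker channels and shapes their inactivation. Its signal was 2187 in PKA-CA heads and 1607 in PKA-DN heads, against 1409 in control heads. It was thus highest in PKA-CA, 1.55-fold above the control (log2 ratio 0.63), and slightly above the control in PKA-DN (0.19). Among compared genes, 98.7% had a lower ratio than Hk for PKA-CA over control. Of the 1114 detected genes with a mean signal within 0.5 log2 units of that of Hk, 1.26% were 1.5-fold or more higher in PKA-CA than in control.

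The other Shaker family genes differed little between arrays at their brightest probe set or were dim. Shaw, whose product carries a current active near rest, had 657 in PKA-CA and 635 in PKA-DN heads, against 627 in control heads, a spread of 1.05-fold. A second Shaw probe set of similar brightness differed more, with a log2 ratio of 0.52 for PKA-CA over PKA-DN. Shal, which encodes a fast inactivating channel of cell bodies and dendrites, had 213 in PKA-CA and 209 in PKA-DN heads, against 202 in control heads. Shab encodes the main delayed rectifier, and its signals of 227 in PKA-CA and 214 in PKA-DN heads were both below the 274 of control heads. Its log2 ratios over control were -0.27 in PKA-CA and -0.36 in PKA-DN.

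The slowpoke gene encodes the large-conductance calcium-activated channel that ends action potentials in neurons and muscle. Its signal was 1824 in PKA-CA heads and 1297 in PKA-DN heads, against 1691 in control heads. As for Sh, the control lay between the PKA arrays, but much nearer to PKA-CA: the log2 ratios over control were 0.11 in PKA-CA and -0.38 in PKA-DN. For PKA-DN over control, 5.07% of compared genes had a lower ratio. For PKA-CA over PKA-DN the log2 ratio was 0.49, or 1.41-fold.

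Among the ether a go-go family, Elk had the widest differences of the 9 channel genes. Elk had a signal of 220 in PKA-CA heads and 471 in PKA-DN heads, against 356 in control heads. Here too the control lay in the middle, but in the opposite direction to Sh and slo, with PKA-DN highest. The signal in PKA-CA was 1.62-fold below the control (log2 ratio -0.69) and that in PKA-DN 1.32-fold above it (0.40). Between the PKA arrays Elk was 2.14-fold lower in PKA-CA (log2 ratio -1.10), and 0.267% of compared genes had a lower ratio. Of the 1595 detected genes of similar mean signal, within 0.5 log2 units, 0.439% had a lower ratio. Elk was measured by 1 probe set.

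The founding member eag, named for the leg shaking of its mutants, had 153 in PKA-CA heads and 185 in PKA-DN heads, against 231 in control heads. Both PKA arrays were below the control, with log2 ratios of -0.60 (1.51-fold) in PKA-CA and -0.32 in PKA-DN. These are dim signals: of the 1123 detected genes of similar mean signal, 5.61% were 1.5-fold or more lower in PKA-CA than in control. The fly ERG-type channel gene sei, whose mutants have seizures and paralysis when heated, had 649 in PKA-CA and 667 in PKA-DN heads, against 648 in control heads. Its signals spanned 1.03-fold over flies that had all been at 32 °C. The sei probe set is of a class (ending in s_at) that the array maker uses for sequences shared by several transcripts, possibly of different genes, and so are the brightest ones of Ork1, SK, Slob and 14-3-3zeta, which appear further on.

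**Figure D2:**
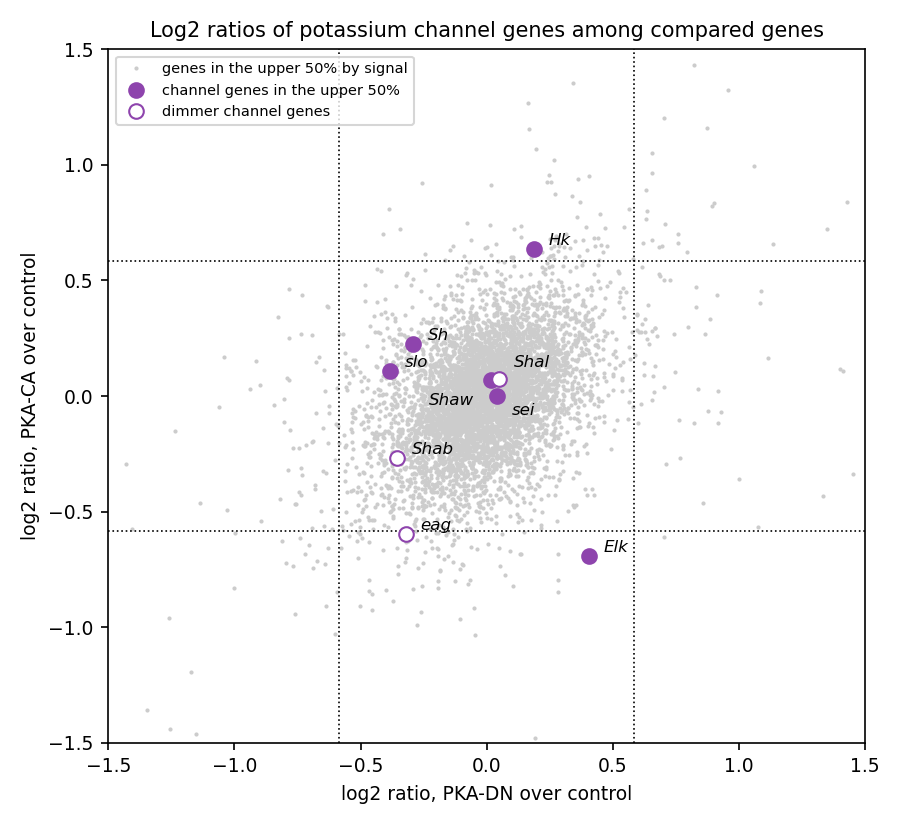
Log2 ratio of PKA-DN over control (horizontal) against that of PKA-CA over control (vertical); grey dots are compared genes, filled circles channel genes among them, open circles dimmer channel genes, and dotted lines mark 1.5-fold. Hk lies above the upper line at 0.63 and Elk below the lower line at -0.69 and right of 0, while Shaw, Shal and sei lie near 0. Both axes share the control array, and 15 compared genes lie outside the limits of 1.5.

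Differences of 1.5-fold or more among the 6 compared channel genes were those of Hk and Elk. Counts in this paragraph are at 1.5-fold or more. For PKA-CA over control, 1 of 6 channel genes (Hk) was higher, against 1.72% of all compared genes, and 1 of 6 (Elk) was lower, against 1.89%. For PKA-DN over control none of the 6 passed 1.5-fold, against 1.49% of compared genes higher and 1.44% lower. For PKA-CA over PKA-DN none was higher, against 2.22%, and 1 (Elk) was lower, against 2.0%. With 6 genes, 1 gene more or less decides each of these shares.

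Over all detected genes, eag joined Elk as 1.5-fold or more lower in PKA-CA than in control. That made 2 of 9 channel genes, against 2.80% of detected genes. The ratio of eag was just past 1.5-fold, and it fell short at -0.54 with quantile normalization, -0.53 with cyclic loess and -0.445 with 64 added to each signal. Hk was again the 1 gene of 9 that was higher by 1.5-fold or more, against 2.12%. In the same wider set none of the 9 passed 1.5-fold for PKA-DN over control, against 2.11% higher and 2.08% lower. For PKA-CA over PKA-DN none was 1.5-fold or more higher, against 2.53%, and Elk was the 1 gene lower by that much, against 2.87%.

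The median log2 ratio of the 6 channel genes was 0.09 for PKA-CA over control, with 5 of 6 higher, where the median of all compared genes was -0.003. Among those 5, sei was almost level with the control, at 0.0009, and with cyclic loess it was at -0.02. For PKA-DN over control the channel median was 0.03, with 4 of 6 higher, and that of compared genes -0.01. For PKA-CA over PKA-DN it was 0.25, with 4 of 6 higher, beside 0.001 over compared genes. With the dim Shab, Shal and eag included, that median was 0.05 over 9 genes. Of all compared genes, 49.5%, 48.3% and 50.2% were higher, in the order of the comparisons above.

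Every order of the arrays occurred among the 9 genes, each taken by its brightest probe set. The order PKA-CA, control, PKA-DN from high to low was that of Sh and slo, which is 2 of 9 channel genes, beside 18.7% of detected genes. The opposite order, with PKA-DN highest and PKA-CA lowest, was that of Elk alone, beside 18.1% of detected genes. Hk, Shal and Shaw had both PKA arrays above the control with PKA-CA highest, as 15.8% of detected genes did, and the differences of Shal and Shaw within that order were at most 1.05-fold.

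Several probe sets of 1 gene give a check within an array, since they read different stretches or transcripts of the gene. The 9 channel genes had 19 probe sets, 17 of them detected. Over 472 compared genes with at least 2 detected probe sets, the log2 ratios of the 2 brightest differed by a median of 0.22 when PKA-CA was set over control, 0.20 when PKA-DN was, and 0.23 between the PKA arrays. In the most discordant 10% of these genes they differed by more than 0.63, 0.55 and 0.60 in the same order. The sign was shared in 55.5%, 61.2% and 59.96% of the genes. Of the channel genes' ratios, those of Elk in PKA-CA over control and over PKA-DN, and barely that of Hk in PKA-CA over control, exceeded these upper values.

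For Sh the 3 brightest of 7 probe sets gave the same picture. The second had 1863 in PKA-CA and 1124 in PKA-DN heads, against 1460 in control heads. The third had 1722 in PKA-CA and 1159 in PKA-DN heads, against 1407 in control heads. Their log2 ratios for PKA-CA over PKA-DN were 0.73 and 0.57, beside 0.52 for the brightest, so each of the 3 had the control in the middle. The fourth, with a mean signal of 407, had 435 in PKA-CA and 405 in PKA-DN heads, against 383 in control heads, so both PKA arrays were above the control there. The fifth, near background with a mean of 122, had 109 in PKA-CA and 96.8 in PKA-DN heads, against 172 in control heads, and the remaining probe sets were not detected. Probe sets that share transcripts are not independent measurements.

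For Hk the probe sets disagreed. The brightest carried the 1.55-fold difference, but the second, with a mean signal of 546, had 561 in PKA-CA and 516 in PKA-DN heads, against 562 in control heads. Its log2 ratio for PKA-CA over control was -0.002. The third, with a mean of 126, had 122 in PKA-CA and 161 in PKA-DN heads, against 102 in control heads, and there PKA-DN was highest. With all 3 averaged, the ratio of Hk for PKA-CA over control was 0.30, below 1.5-fold.

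Both Shab probe sets were below the control on both PKA arrays, the second with 230 in PKA-CA and 174 in PKA-DN heads, against 253 in control heads. The second Shaw probe set differed from the first: it had 646 in PKA-CA and 450 in PKA-DN heads, against 573 in control heads. Its order of arrays was that of Sh and slo, with a log2 ratio of 0.52 for PKA-CA over PKA-DN, where the brighter probe set had 0.05.

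**Figure D3:**
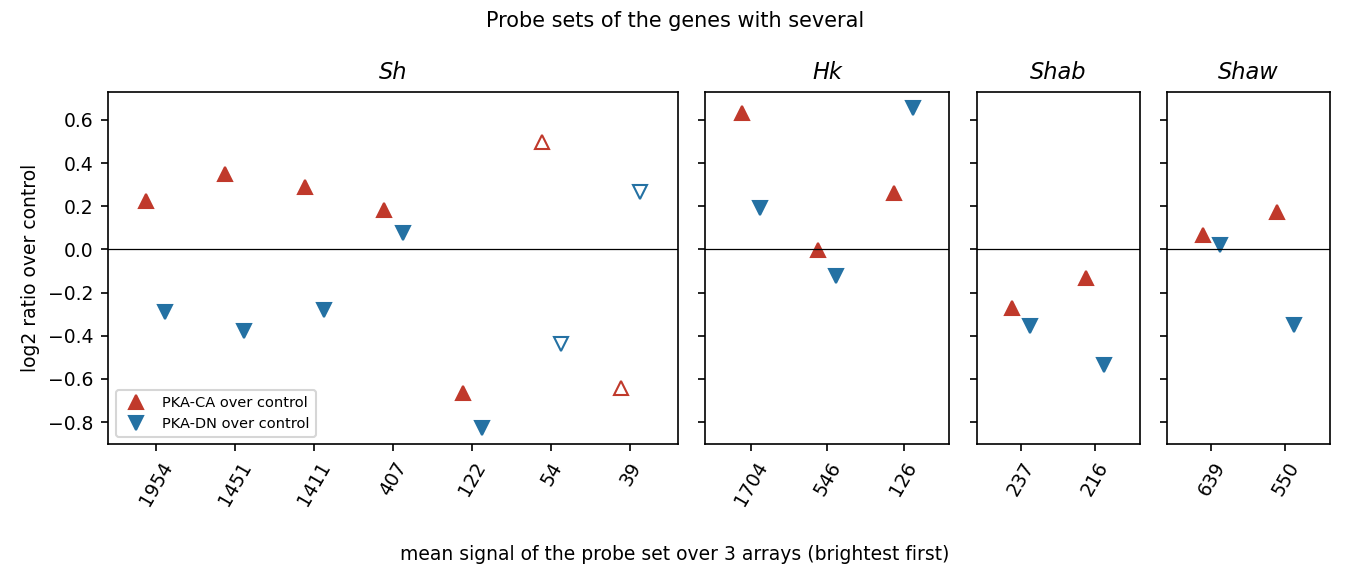
Log2 ratios over control for each probe set of the 4 channel genes with several, brightest first, labelled with the mean signal; upward triangles are PKA-CA, downward triangles PKA-DN, and open symbols are probe sets that were not above the background controls on all 3 arrays. The 3 brightest Sh probe sets have PKA-CA above and PKA-DN below 0, whereas the Hk ratios in PKA-CA run between 0.63 and -0.002.

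Markers of several tissues that express these channels also differed between the arrays. Of 10 neuronal marker names, 8 had a probe set and were compared. Of these, 8 were higher and none lower in PKA-CA than in control (median log2 ratio 0.07), while 2 were higher and 6 lower in PKA-DN (-0.06). Of all compared genes, 49.5% were higher in PKA-CA and 48.3% in PKA-DN than in control. The median distance of compared genes from their middle ratio was 0.15 for PKA-CA over control, more than the neuronal median. For PKA-CA over PKA-DN all 8 neuronal markers were higher, with a median of 0.32, beside 50.2% of compared genes. The neuronal RNA-binding protein gene elav had 637 in PKA-CA and 421 in PKA-DN heads, against 619 in control heads, the same order as Sh and slo. Summed neuronal marker signals were 24652 in PKA-CA and 20805 in PKA-DN heads, against 22383 in control heads, and no marker was at 0. Of 10 mushroom body marker names, 7 were compared, and Dop1R1 and prt were not detected. The compared mushroom body markers had a median of 0.29 in PKA-CA (7 of 7 higher) and -0.06 in PKA-DN (3 of 7 higher) over control. Their summed signals were 8389 in PKA-CA and 6630 in PKA-DN heads, against 6899 in control heads.

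Muscle, which also uses Shaker and Slo channels, had marker medians of 0.53 in PKA-CA (9 of 9 higher) and 0.19 in PKA-DN (7 of 9 higher) over control. These 9 were the compared genes out of 15 muscle marker names. The shares of all compared genes higher than in control were 49.5% in PKA-CA and 48.3% in PKA-DN. Summed muscle signals were 18713 in PKA-CA and 16430 in PKA-DN heads, against 12318 in control heads. Glial markers had medians of -0.28 in PKA-CA and -0.11 in PKA-DN, with 6 of 8 lower in each, and summed to 18236 in PKA-CA and 20039 in PKA-DN heads, against 21793 in control heads. Photoreceptor markers had medians of -0.01 in PKA-CA and 0.01 in PKA-DN, and fat body markers of -0.40 in PKA-CA and -0.21 in PKA-DN. The part of these markers in the channel ratios was not tested. In whole-head RNA, fewer cells of a type and less RNA per cell cannot be told apart.

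The other potassium channel genes were taken as 3 lists: inward rectifiers, tandem-pore (K2P) leak channels, and further calcium- or sodium-activated channels. All 16 had a probe set, and 8 were among the compared genes. None of these 8 passed 1.5-fold over control on either PKA array, beside shares of compared genes of 1.72% higher and 1.89% lower in PKA-CA and of 1.49% higher and 1.44% lower in PKA-DN. In PKA-CA heads 3 lay above the control and 5 below it, with a median log2 ratio of -0.16. In PKA-DN heads 2 lay above and 6 below it, with a median of -0.10. Of all compared genes, 49.5% lay above the control in PKA-CA and 48.3% in PKA-DN.

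Among the inward rectifiers, which carry potassium into hyperpolarized cells, Irk1 had 723 in PKA-CA and 577 in PKA-DN heads, against 537 in control heads (log2 ratios 0.43 and 0.10). For Irk2 the log2 ratios were -0.22 in PKA-CA and -0.09 in PKA-DN. Irk3 was lower on both PKA arrays by similar amounts, with 269 in PKA-CA and 268 in PKA-DN heads, against 374 in control heads. The small-conductance calcium-activated channel gene SK had 2191 in PKA-CA and 1831 in PKA-DN heads, against 1868 in control heads. SLO2, a further member of the Slo family, had 542 in PKA-CA and 485 in PKA-DN heads, against 581 in control heads. Of the compared leak channel genes, Ork1 lay above the control in PKA-CA (log2 ratio 0.21) and PKA-DN (0.19), while Task7 (-0.22 and -0.12) and CG1688 (-0.47 and -0.25) lay below it on both.

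The leak channel gene sand, known for its role in sleep-control neurons, stood apart and was picked out after its values were seen. Its single probe set had a signal of 157 in PKA-CA heads and 91.4 in PKA-DN heads, against 635 in control heads. The signal was 4.06-fold lower in PKA-CA (log2 ratio -2.02) and 6.95-fold lower in PKA-DN (-2.80) than in control. No other detected gene had a ratio as low for PKA-DN over control, and 4 of 7458, sand included, were as low for PKA-CA over control. The PKA-DN signal was little above the highest background control of that array, 77.8, so the fold is imprecise. Because its mean signal fell below the compared range, sand is in none of the counts over compared genes. Both ratios rest on the same control array.

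By their brightest probe sets, genes for channel partners and regulators were spread around 0, with 3 of 6 higher and 3 of 6 lower for each PKA array over control. Of all compared genes, 49.5% were higher in PKA-CA and 48.3% in PKA-DN than in control. The medians of the 6 partner genes were 0.02 for PKA-CA and 0.04 for PKA-DN, beside -0.003 and -0.01 over compared genes. The Shaker-binding membrane protein gene quiver (qvr, also called sleepless) had 4294 in PKA-CA and 3583 in PKA-DN heads, against 3720 in control heads. The Slo-binding protein gene Slob had 4190 in PKA-CA and 4136 in PKA-DN heads, against 3611 in control heads. Dimmer probe sets of qvr and Slob departed from these values and are described at the end. Slip1, for another Slo-interacting protein, had 1155 in PKA-CA and 1616 in PKA-DN heads, against 1189 in control heads, so PKA-DN was highest as it was for Elk. For SIDL, CASK and 14-3-3zeta the log2 ratios lay between -0.07 and 0.08 in PKA-CA and between -0.22 and 0.12 in PKA-DN.

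**Figure D4:**
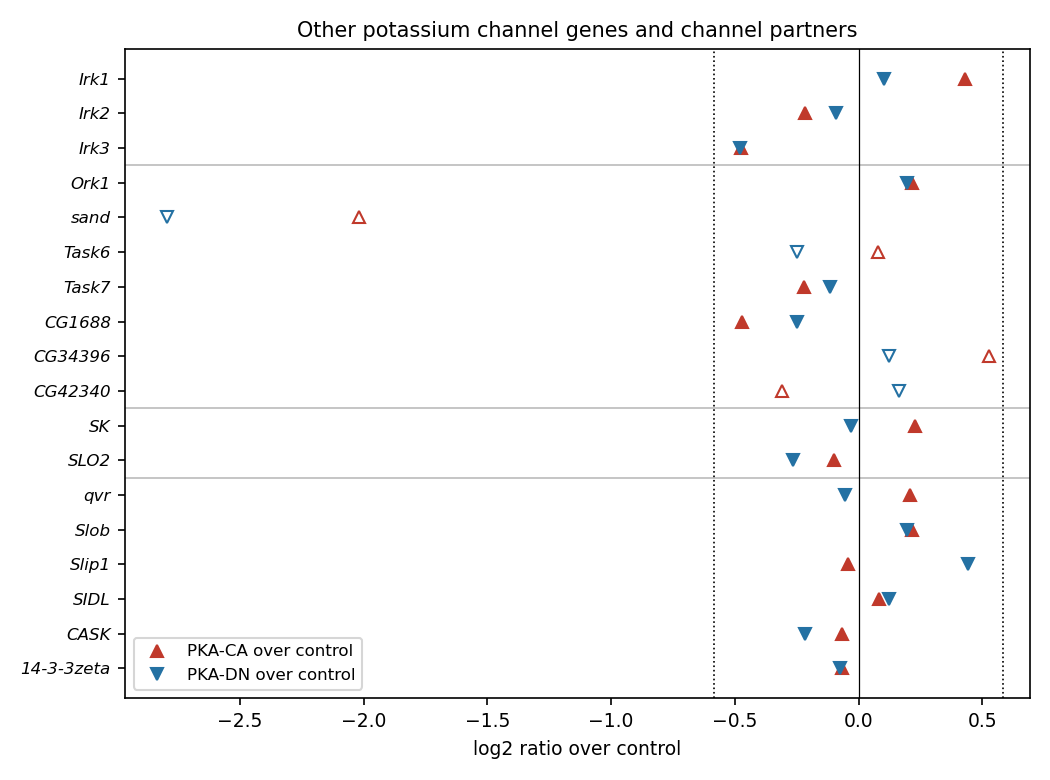
Log2 ratios over control of other detected potassium channel genes and of channel partners; upward triangles are PKA-CA, downward triangles PKA-DN, open symbols are genes below the compared signal range, and dotted lines mark 1.5-fold. The panels from top to bottom are inward rectifiers, leak channels, calcium- or sodium-activated channels and partners. Only sand, at -2.02 and -2.80, lies beyond the lines.

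Sodium, calcium and HCN channel genes, listed together with genes of accessory subunits such as tipE, stj, unc79 and unc80, served for comparison. Of 17 names 11 were compared. At 1.5-fold or more, 1 of 11 (para) was lower in PKA-CA than in control (log2 ratio -0.65), beside 1.89% of compared genes. The same gene was lower in PKA-DN (-0.70), beside 1.44%, and none of the 11 was higher by that much. Over all detected genes the dimmer Ca-alpha1T joined it in PKA-DN heads (-1.10), so 2 of 16 were lower, beside 2.08%. For PKA-CA over PKA-DN 10 of 11 were higher, with a median of 0.20, beside 4 of 6 and 0.25 for the potassium channel genes. Of all compared genes, 50.2% were higher. For PKA-CA over control 7 of 11 were higher (median 0.08), beside 49.5% of compared genes. So were 5 of 6 potassium channel genes (0.09), of which sei was almost level with the control. Set over control, 9 of 11 were lower in PKA-DN heads, with a median of -0.16. So were 2 of 6 potassium channel genes and 3100 of 5991 compared genes. Over all detected genes, 11 of 16 were lower in PKA-DN heads, beside 4 of 9 potassium channel genes and 3866 of 7458 genes. The medians for PKA-CA over PKA-DN were then 0.15 for this list and 0.05 for the potassium channel genes. Whether the lists differ could not be tested with 1 array per genotype.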

How the data were processed

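RNA of whole heads was measured on 3 arrays, 1 per genotype, and grouped by sample title. The authors deposited linear intensity values, 1 MAS5 signal per probe set, per the submitters' processing notes; for the MAS5 version and its settings, the sources used here give nothing. The mean of the 18952 signals without the highest and lowest 2% was 500 on every array. Signals were used as deposited and compared as log2 ratios with no constant, with Python 3.11.15, pandas 2.3.3 and limma 3.58.1 for the scaling alternatives. Of 18952 probe sets, 13646 had 1 gene symbol, 402 had several, and the rest were unnamed here; for 13543 the current symbol was taken by gene identifier from RefSeq (assembly Release 6 plus ISO1 MT). The brightest probe set stood for a gene. Background came from the AFFX-Dm control probe sets, of which 99 of 100 were used, leaving aside 1 brighter than 1000.

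No test was possible. Differences were counted at 1.5-fold, and all 9 channel genes with a probe set are named, as are the compared genes of the wider potassium lists. The genes and lists were chosen with earlier results of these data known. The counting code was run on simulated signals with 2-fold changes and little noise. It found 100 of 100 raised genes and 92 of 100 lowered ones, as 8 left the compared set. Such changes lie well past 1.5-fold, so the run says nothing on genes near that limit. The filter on mean signal can leave out a gene because it is low on 1 or more arrays, as it did sand. Other scalings, an added constant, other probe sets, filters and 2-fold were tried. No sequences are shown, and no genome coordinates were used.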

Additional observations from a re-analysis of the deposited data

How the results depend on the processing

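Under quantile normalization, cyclic loess, centring on the median ratio or 64 added to each signal, every ratio of the 6 compared channel genes kept its sign except that of sei for PKA-CA over control, which was -0.02 with cyclic loess. Elk then ranged between -0.69 and -0.56 for PKA-CA over control and between -1.11 and -0.91 for PKA-CA over PKA-DN, and Hk between 0.61 and 0.64 for PKA-CA over control. With 64 added, Elk at -0.56 was still below the control but no longer passed 1.5-fold. In PKA-CA heads 0 channel genes were then 1.5-fold or more below the control, beside 77 of 5991 compared genes. With probe sets averaged, 0 channel genes were 1.5-fold or more above the control in PKA-CA heads, beside 127 of all compared genes. The channel median in PKA-CA heads was then still above the control, at 0.07, while the median in PKA-DN heads was below it, at -0.0625. The second Hk probe set had -0.0025 for PKA-CA over control.

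With no filter, or with all detected genes, the median of the channel genes between the PKA arrays was 0.049. PKA-CA heads then had 2 channel genes 1.5-fold or more below the control, beside 1919 of 11981 named genes and 209 of 7458 detected genes. The second of these channel genes, eag, passed 1.5-fold as deposited and when centred, but not with quantile normalization (-0.54), cyclic loess (-0.53) or 64 added (-0.445). In the upper 25% by signal only Sh, Hk and slo remained. Their medians were 0.49 for PKA-CA over PKA-DN and -0.29 for PKA-DN over control, and PKA-CA heads had 0 channel genes below either other genotype. At 2-fold 0 were higher and 0 lower for PKA-CA over control, while Elk stayed lower when PKA-CA was set over PKA-DN, though with 64 added its -0.91 was short of 2-fold.

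Counts over all genes depended on the filter. For PKA-CA over control 103 genes were higher and 113 lower at 1.5-fold among compared genes, 158 and 209 among detected genes, 1156 and 1919 with no filter, and 33 and 31 in the upper 25%. For PKA-DN over control the counts were 89 and 86, 157 and 155, 1407 and 1420, and 40 and 38 in the same order. Between the PKA arrays, PKA-CA over PKA-DN, they were 133 and 120, 189 and 214, 1145 and 1933, and 59 and 47. At 2-fold the compared genes gave 13 and 14, 19 and 17, and 19 and 23. For sand the ratio was between -2.02 and -1.66 in PKA-CA and between -2.81 and -2.17 in PKA-DN over control under these scalings. No paired analysis was possible because each genotype had 1 array. Dim signals limit Elk, eag, Shab, Shal and sand most.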

Other observations

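Dimmer probe sets of both Slo and Shaker partners departed from the brightest ones. The third qvr probe set had 199 in PKA-CA and 235 in PKA-DN heads, against 563 in control heads (log2 ratios -1.498 and -1.26), where its brightest had 0.21 and -0.05. The second qvr probe set, with a mean signal of 920, had ratios of -0.18 in PKA-CA and 0.08 in PKA-DN, both opposite in sign to the brightest. The second Slob probe set had 432 in PKA-CA and 437 in PKA-DN heads, against 600 in control heads, so its ratios of -0.47 and -0.46 had the opposite sign to the 0.21 and 0.20 of the brightest. These were picked out after values were seen, and whether the probe sets read different transcripts was not tested.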
